A study of Mus musculus with 6 samples.

Results

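Broad Ezh2 domains are stretches of at least 10 kb over which the Polycomb protein Ezh2 was enriched in cultured mouse T helper cells. They were found by chromatin immunoprecipitation followed by sequencing (ChIP-seq), and 565 of the 10345 enriched regions in the genome were that wide. A 1 kb bin was called enriched when the Ezh2 positions of both cell types together were at least 2-fold over those of both inputs, by a one-sided exact binomial test at a Benjamini-Hochberg adjusted p below 0.05. Of 2173237 bins tested, 27832 (1.28%) were called, and called bins with at most 1 uncalled bin between them were merged. The domains were thus chosen by Ezh2 over input in these same libraries, so folds over input inside them are a description and support nothing. A position is a distinct interval to which 1 or more reads were aligned, and every fold is a ratio of positions scaled by the library totals.

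The cells were grown for 5 days from naive CD4 T cells of C57BL/6 spleen. They were stimulated through the T cell receptor and CD28 for 2 days and rested for 3, with IL-2 at 15 ng/ml. Th1 cells received IL-12 at 10 ng/ml and an antibody to IL-4, and Th2 cells received IL-4 at 100 ng/ml and an antibody to IFN-γ. Each of the 2 cell types gave 3 libraries, an Ezh2 pull-down, a rabbit IgG control pull-down and input DNA, with 1 library per group. There were no replicates, so each test below compares libraries, and each 95% exact interval covers counting error only. PCR reads without molecular identifiers are not independent molecules, and a culture is a mixed population whose purity was not measured here. ChIP-seq measures no transcripts, so the cell types were not checked against marker genes. The Th1 and Th2 Ezh2 files bear different run labels in their names, and sequencing run and cell type cannot be told apart.

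Ezh2 is the methyltransferase of Polycomb repressive complex 2, which places methyl groups on lysine 27 of histone H3 at genes that are kept silent. In mammals this complex is found at CpG-rich gene starts, and at some developmental regulators, above all the Hox clusters, it spreads over long stretches of chromatin. In T helper cells it is known for holding regulators and cytokine genes of the opposite fate in check, among them Gata3, the master regulator of Th2 cells, and Eomes, a T-box factor related to the Th1 regulator T-bet.

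Coordinates are those of mm9, the build named in the submitters' processing notes. Gene names below come from general knowledge of the mouse map, as background. They were not placed with an annotation of that build, and a RefSeq gene table of GRCm38.p6 served only to check the chromosome, which was the same for 23 of 23 names. Among the domains that differed between the cell types were chr2:9804001-9822000 in the neighbourhood of Gata3 and chr9:118377001-118398000 in that of Eomes, singled out because both genes encode T helper regulators. To show the kind of sequence at these genes, the 250 bases before each gene's start follow, 5′ to 3′ on the gene's strand, from RefSeq (GRCm38.p6), with each CpG in capitals. Whether these bases lie inside the domains was not determined.
Gata3: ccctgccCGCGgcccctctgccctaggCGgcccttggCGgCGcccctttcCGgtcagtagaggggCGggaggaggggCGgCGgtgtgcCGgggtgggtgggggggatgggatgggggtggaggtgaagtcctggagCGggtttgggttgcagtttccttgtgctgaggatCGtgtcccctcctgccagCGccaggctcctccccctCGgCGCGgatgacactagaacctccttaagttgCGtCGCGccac
Eomes: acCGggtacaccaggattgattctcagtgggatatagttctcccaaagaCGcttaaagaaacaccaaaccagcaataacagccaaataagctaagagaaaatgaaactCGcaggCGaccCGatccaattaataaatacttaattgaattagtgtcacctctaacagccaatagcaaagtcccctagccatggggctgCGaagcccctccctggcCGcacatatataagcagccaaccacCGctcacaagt

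The Gata3 stretch held 19 CpG dinucleotides and was 70.0% G and C. Of 32851 promoter stretches of that length, 19.7% held at least as many CpG. The Eomes stretch held 8 CpG and was 46.4% G and C, and 43.0% of the promoters held at least as many. The median promoter had 6 CpG and 52.4% G and C. CG reads the same on both strands, so 1 strand was counted, and the counts describe these letters only.

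The Ezh2 libraries held 10834902 distinct positions in Th1 and 14997378 in Th2, the inputs 15626355 and 12902652, and the Th1 control 9353748. The Th2 control was used on the 8 chromosomes that its file holds whole. The domains covered 10000 kb, which was 0.379% of the chromosomes used, and took in 33.5% of all called bins. They held 2.97% of the Th1 Ezh2 positions (95% exact interval 2.96 to 2.98) and 3.70% of those of Th2 (3.69 to 3.71). The same stretches held 0.506% of the Th1 input (0.502 to 0.509), 0.491% of the Th2 input (0.487 to 0.495) and 0.482% of the Th1 control (0.478 to 0.487). Per kb, Ezh2 positions averaged 32.1 in Th1 and 55.4 in Th2 inside the domains, against 4.10 and 5.67 over the genome. The inputs were denser there too, by 1.33 times in Th1 and 1.30 times in Th2.

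Most domains were only just wide enough to be counted, and a few were very long. The median width was 14 kb, the quartiles were 11 and 20 kb, and 303 domains (53.6%) were 10 to 14 kb wide. Another 116 were 15 to 19 kb, 99 were 20 to 29 kb, 36 were 30 to 47 kb and 11 were 50 kb or more. The 4 widest together covered 529 kb, or 5.29% of the domain length. Inside the domains, 172 (30.4%) had every bin called, and the median domain had 92.9% of its bins called, with 61.5% in the least filled.

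The 3 widest domains lay where Hox clusters are known to be. Hox genes encode the homeobox factors that set position along the body axis, and they are silent in most mature blood cells. The widest, chr15:102734001-102908000 (174 kb, in the HoxC cluster, which runs from Hoxc13 to Hoxc4), held 8538 Ezh2 positions in Th1 and 15905 in Th2, with 1511 and 1122 input positions and 906 in the Th1 control. At chr11:96103001-96242000 (139 kb, HoxB, with Hoxb9 and Hoxb1) the Ezh2 positions numbered 5324 in Th1 and 9214 in Th2, over 1087 and 960 input positions. At chr2:74482001-74606000 (124 kb, HoxD, with Hoxd13 and Hoxd1) they numbered 5743 and 10861. In all 3 the Th1 control was between 0.960-fold and 1.05-fold over input.

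The long domains were not flat. Scaled to 1000000 positions per library, the bins of the HoxC domain ran from 0.648 to 11.7 positions per kb in Th1, with a median of 4.44, and from 1.20 to 13.7 in Th2, with a median of 6.28. The Th1 input had a median of 0.578 per kb there and a highest bin of 1.03. The HoxB domain had its high bins on the side of lower coordinates, with medians of 2.87 in Th1 and 3.54 in Th2 and highest bins of 12.1 and 14.1. Th1 and Th2 rose and fell together along each of the 3, as the plot of the widest domains shows. Spearman's rho between the Th1 and Th2 bins was 0.899 in the HoxC domain, 0.908 in HoxB and 0.921 in HoxD. These are descriptions over neighbouring bins that share the local sequence.

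**Figure D1:**
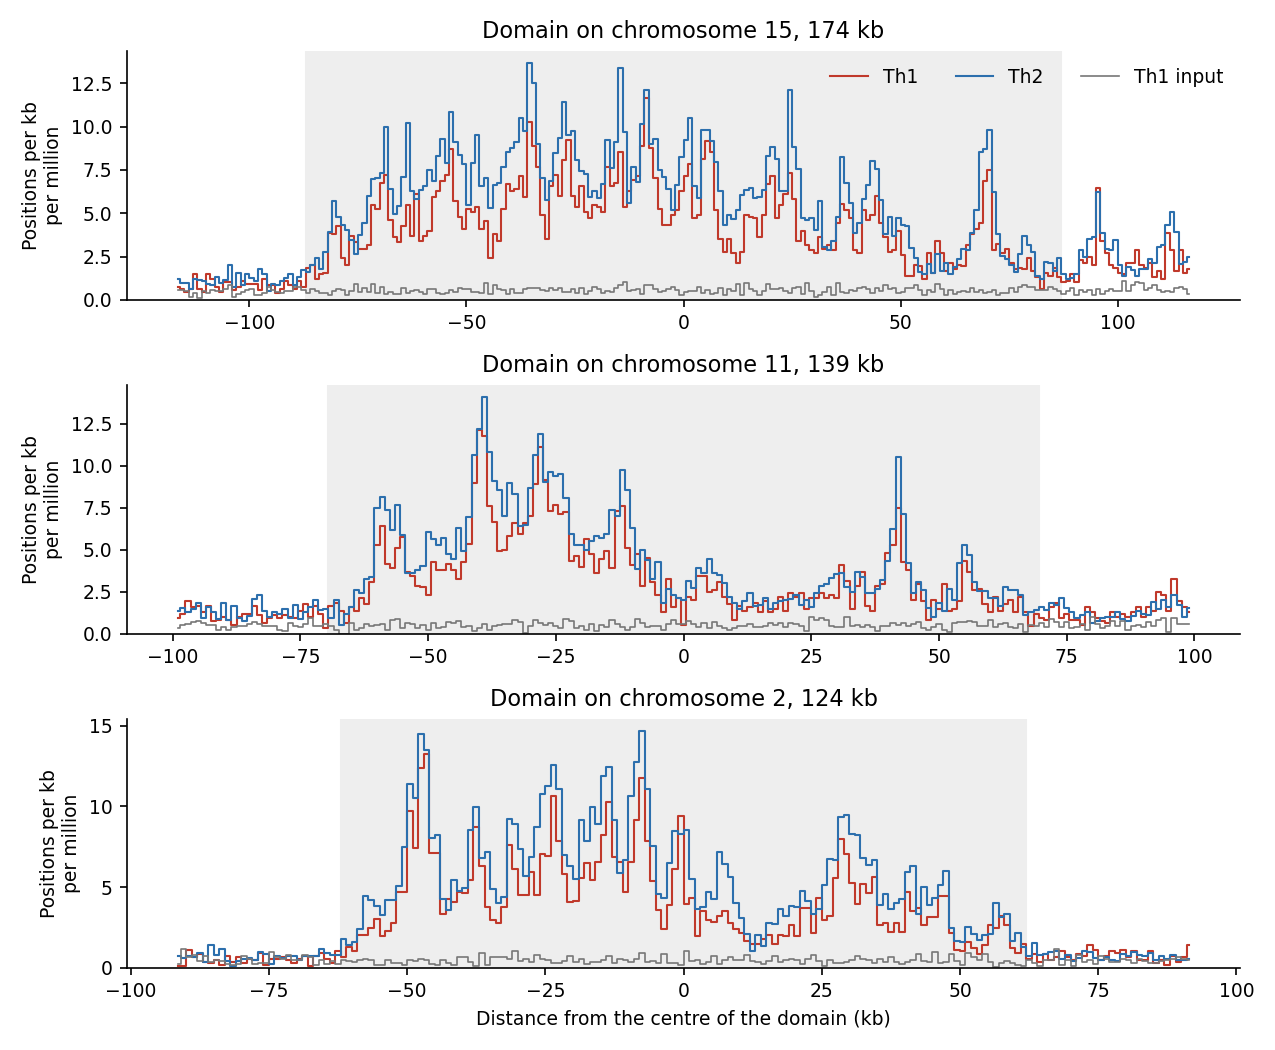
Ezh2 positions per kb bin, scaled to 1000000 positions per library (vertical axis), against the distance from the centre of each of the 3 widest domains (kb), for Th1, Th2 and the Th1 input; the grey band is the domain. Th1 and Th2 rise and fall together, to highest bins of 11.7 and 13.7 on chromosome 15, while no Th1 input bin of that domain is above 1.03.

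Of the other domains of 50 kb or more, 7 were shorter than 70 kb. They were chr7:86637001-86706000 (69 kb), chr5:140004001-140065000 (61 kb), chr19:44791001-44849000 (58 kb), chr11:96018001-96072000 (54 kb), chr15:102911001-102965000 (54 kb), chr14:63847001-63897000 (50 kb) and chr5:28474001-28524000 (50 kb). By general knowledge the domain on chromosome 19 is at Pax2, a factor of kidney and eye development, and that from 96018001 on chromosome 11 at Hoxb13, the far end of the HoxB cluster. Those on chromosome 14 and from 28474001 on chromosome 5 are at Gata4, a heart and gut factor, and En2, a midbrain homeobox gene. Among the 11, the weakest was the 54 kb domain on chromosome 15, which starts 3 kb after the widest one ends. Its fold over input was 3.49 for Th1 (3.14 to 3.88) and 4.93 for Th2 (4.40 to 5.54), its Th1 and Th2 bins had a rho of 0.221, and Th1 alone called no piece longer than 8 kb in it.

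Width and strength went together, and the strongest domains were of middling width. The median pooled fold over input was 5.20 in domains of 10 to 14 kb, 6.20 at 15 to 19 kb, 7.66 at 20 to 29 kb, 7.53 at 30 to 47 kb and 8.27 at 50 kb or more. Regions below the width limit had medians of 3.60 at 3 to 5 kb and 4.44 at 6 to 9 kb. Across the 565 domains the Spearman correlation of width and pooled fold was 0.406, a description over regions that share the same libraries. Over all domains the fold had a median of 5.05 in Th1, from 1.67 to 13.3, and of 6.47 in Th2, from 2.67 to 17.4. In 564 of the 565 it was 2 or more in both cell types, a count that the choice of the domains largely fixes.

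The highest pooled fold, 15.1, was at chr11:85637001-85661000 (24 kb), the place of Tbx2, a T-box factor of limb and heart development. The fold over input there was 13.3 for Th1 (11.6 to 15.6) and 16.8 for Th2 (14.3 to 19.97), from 1856 and 2937 positions. Next came chr16:94075001-94101000 (26 kb, pooled fold 14.6), the place of Sim2, a neural transcription factor. The other 3 of the 5 highest were chr7:138683001-138704000 (13.5), chr2:71362001-71394000 (13.3), the place of the homeobox pair Dlx1 and Dlx2, and chr8:94876001-94894000 (13.2), that of Irx5. At Irx5, an Iroquois homeobox gene, Th1 was at 9.82-fold (8.25 to 11.8) and Th2 at 17.4-fold (14.1 to 21.9). This domain did not pass the test of folds between the cell types given below. Relative to the median region of 3 kb or more, its Th1 to Th2 ratio of positions was 0.874. Divided by the ratio of uncalled bins within 500 kb, it was 0.965.

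The control pull-down was close to input in the domains. Over the domains summed, the Th1 control was 0.954-fold over input, with a median of 0.960 per domain and a range of 0.521 to 1.74. It reached 2-fold in 0 of 565 domains and 1.5-fold in 4. The Th2 control had a median of 0.932, from 0.555 to 1.83, over the 230 domains on the 8 chromosomes it holds whole, and reached 2-fold in 0. Put through the same calling in place of Ezh2, both control libraries together gave 5 called bins of 924427 and 0 domains on those chromosomes. The Th1 control alone gave 20 called bins of 1321128 and 0 domains genome-wide.

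Domains were unevenly spread over the genome. Chromosome 2 held 64, chromosome 11 held 60, chromosome 5 held 48 and chromosome 4 held 45. Per length, chromosome 11 was the richest at 4.92 domains per 10 Mb, with 0.951% of its length covered, followed by chromosome 19 at 4.24 and 0.820%. Called bins of any region were uneven too, at 2.55% of tested bins on chromosome 11 and 2.18% on 19 beside 1.28% genome-wide. Of all enriched regions, domains made up 6.24% on chromosome 11 and 6.21% on 19 beside 5.46% genome-wide. That share ran from 2.19% on chromosome X to 7.43% on chromosome 5. Chromosome X had 3, or 0.180 per 10 Mb. Its Th1 input held 2.40 positions per kb against 5.52 to 7.06 on the autosomes, and 37.1% of its bins had enough positions to be tested, so fewer domains and lower coverage cannot be told apart there.

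Many domains had a near neighbour. The median gap to the nearest other domain was 449 kb, from 51 kb at the lower quartile to 1656 kb at the upper, and the gap to the next domain along the chromosome had a median of 1214 kb (n = 545). A neighbour within 10 kb was present for 55 domains (9.73%), within 50 kb for 140 (24.8%) and within 500 kb for 296 (52.4%), while 187 had none within 1000 kb. With a limit of 20 kb the domains formed 44 groups, of which the one with the most kb covered was 4 domains in the HoxC neighbourhood, chr15:102734001-103016000, which covered 260 kb of 282 kb. With a limit of 500 kb, 8 domains fell together on each of 3 chromosomes, at chr15:101831001-103016000, chr11:94871001-96743000 and chr19:44738001-45822000.

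**Figure D2:**
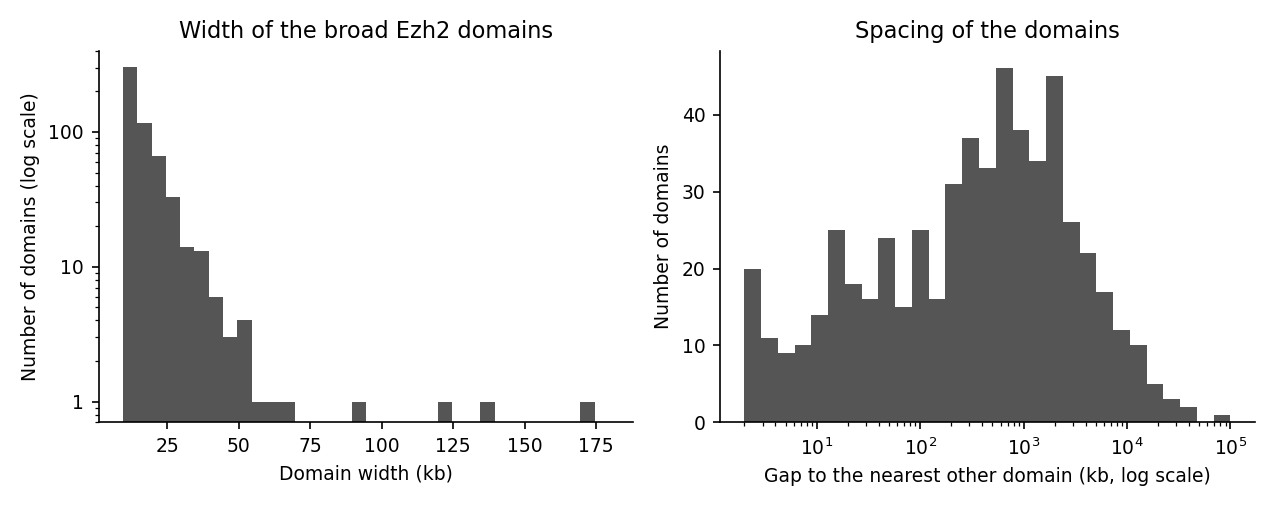
Left, number of domains (log scale) against width (kb, in 5 kb steps); right, number of domains against the gap to the nearest other domain (kb, log scale). Widths fall off steeply from 10 kb, with 4 domains of 92 to 174 kb apart from the rest in width, and gaps spread from 2 kb to 83020 kb around a median of 449 kb.

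Some of the splits between neighbours were shallow. In 10 pairs only 2 bins lay between neighbouring domains, and the pooled fold in those 2 bins ranged from 1.46 to 3.10, above 1 in each pair. The 5 that came first in order were chr11:53268001-53282000 with 53284001 to 53301000, where the gap stood at 2.05-fold, chr11:59100001-59114000 with 59116001 to 59128000 at 3.10, chr12:112660001-112670000 with 112672001 to 112692000 at 2.25, chr13:40796001-40817000 with 40819001 to 40841000 at 1.47, and chr14:122844001-122858000 with 122860001 to 122897000 at 2.19. Merging across 2 uncalled bins gave 684 domains, and merging across none gave 403.

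The limit of 10 kb did not mark a step in strength. Regions of 9 kb, just outside it, numbered 128 and had a median pooled fold of 4.99, and the 83 of 10 kb had 4.92. The strongest of those just outside were chr10:119909001-119918000 at 9.58-fold, chr9:36948001-36957000 at 8.83, chr5:118617001-118626000 at 8.68, chrX:133650001-133659000 at 8.67 and chr17:48229001-48238000 at 8.15. Just inside they were chr2:38561001-38571000 at 10.4, chr5:148532001-148542000 at 8.47, chr9:122475001-122485000 at 8.33, chr7:152121001-152131000 at 7.84 and chr7:152044001-152054000 at 7.73.

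A typical domain rose from both ends to a high middle. With each domain divided into 10 equal parts, Th1 Ezh2 over input went from 3.63 in the first to 8.05 in the fifth and back to 3.29 in the last. In Th2 it went from 4.56 to 10.2 and back to 4.05, and the Th1 control stayed between 0.918 and 1.03. The strongest bin lay in the middle 20% of the width in 238 domains (42.1%) and among the outer 2 bins of either side in 17. It held a median of 13.6% of the Ezh2 positions of its domain. Since a domain ends where bins stop being called, part of this shape follows from the rule.

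The places of the peaks and troughs were then read in the cell type that had not chosen them. The extent of each domain was set on both cell types summed, so this reading is not independent of the calling and is a description. The strongest bin of a domain in Th1 held 1.91 times the domain's mean bin in Th2 (median), was above that mean in 545 of 565 domains and was among the 3 strongest bins of Th2 in 484 (85.7%). In the other direction, the strongest bin in Th2 held 1.90 times the mean in Th1, was above it in 547 domains and was among the 3 strongest in 481 (85.1%). The weakest inner bin of Th1 was at 0.525 times the mean in Th2, and that of Th2 at 0.512 times the mean in Th1. The strongest bins of both cell types were the same 1 kb bin in 284 domains (50.3%) and at most 1 kb apart in 462 (81.8%). Within a domain, the Spearman correlation of Th1 and Th2 bins had a median of 0.813, from -0.235 to 0.997, and a median of 0.872 in the 146 domains of 20 kb or more. Bins of 1 domain share local sequence and mappability, whose part in this was not tested.

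Edges were read in the same way, on domains called in 1 cell type alone. Around the 213 domains of Th1, the Th2 Ezh2 library stood at 1.80-fold over input 20 kb outside, 2.07 at 10 kb, 2.55 at 5 kb and 4.14 in the last bin outside. It was at 5.57 in the first bin inside and 11.7 at 5 kb inside. Around the 316 domains of Th2, the Th1 library stood at 1.67, 1.68, 1.95 and 2.61 outside, then at 3.20 and 7.99 inside. The fold of the library that had set the edge stepped more abruptly, from 2.49 to 5.83 in Th1 and from 2.50 to 6.03 in Th2. Part of that step lay in the input. At the Th1 edges, Th1 input fell from 8.82 to 6.67 positions per bin while Th1 Ezh2 rose from 15.2 to 27.0. At the Th2 edges, Th2 input fell from 7.18 to 4.89 while Th2 Ezh2 rose from 20.9 to 34.3. Summed over edges and read in the other cell type, the rise was spread over several kb, and the flanks were still above input 20 kb away. A sum cannot tell gradual edges from sharp edges that lie at different places in the 2 cell types. The Th1 control lay between 0.868 and 1.13 over the same bins, and went from 0.868 to 1.13 across the Th1 edges.

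**Figure D3:**
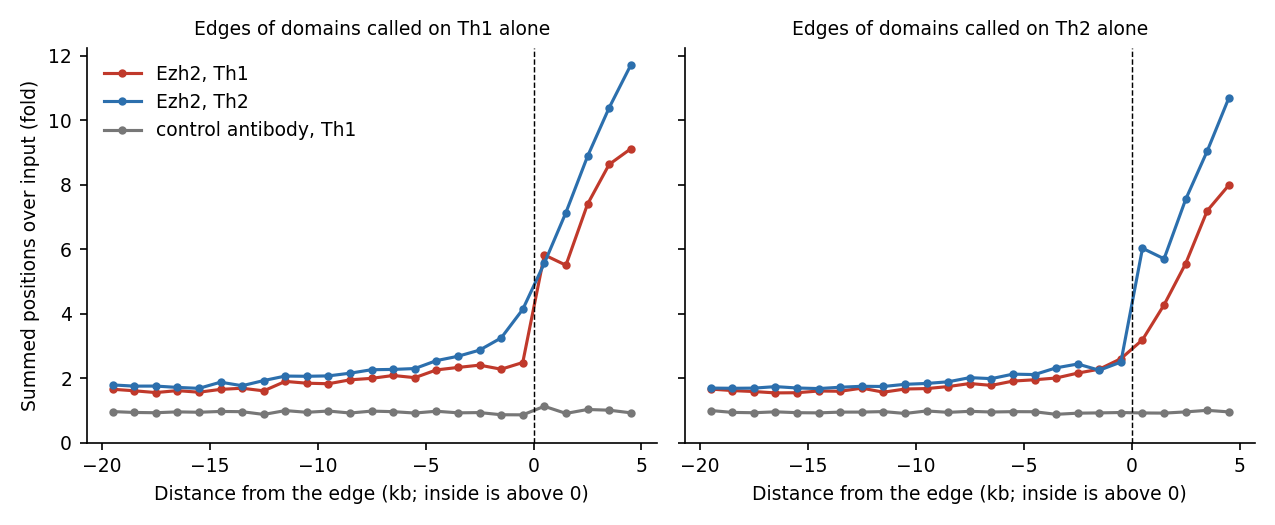
Summed positions over input (fold) against distance from the domain edge (kb, inside above 0), for domains called on Th1 alone (left, 213) and Th2 alone (right, 316), with both Ezh2 libraries and the Th1 control. Summed over edges, the library that did not set the edge goes from 4.14 to 5.57 across it in Th2 on the left. On the right, Th1 goes from 2.61 to 3.20. The control lies between 0.868 and 1.13, and both of these values are at the Th1 edge.

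Few domains were whole when only 1 cell type was used to call bins, of which 0.992% passed genome-wide with Th1 alone and 1.21% with Th2 alone. With Th1 alone a median of 55.6% of a domain's bins were called, and with Th2 alone 72.7%. The longest piece was 10 kb or more in 206 domains with Th1 and in 300 with Th2, and it spanned the full width in 7 and 48. In several pieces were 244 domains with Th1 and 207 with Th2. No bin was called with Th1 alone in 2 domains, and with Th2 alone in 0. The depth differed as well, and at equal depth the domains called numbered 193 in Th1 and 289 in Th2.

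The comparison of Th1 with Th2 asked whether Ezh2 over a domain differed between the cell types. Ratios of Ezh2 positions are given relative to the median over all 2902 regions of 3 kb or more, which was 0.854 after scaling by library totals and 0.824 over the domains alone. Domains were much alike in the 2 cell types by size: the ratio had a median of 0.964, a range of 0.470 to 1.84, and lay between 0.67 and 1.5 in 545 of 565 domains (96.5%). A two-sided exact binomial test, its p adjusted by Benjamini-Hochberg across the 2902 regions, called 0 domains at least 2-fold higher in Th1, beside 0.724% of all regions, and 1 at least 2-fold higher in Th2, beside 0.586%. Without the limit of 2-fold, 21 domains passed as higher in Th1, 3.72% of them beside 5.27% of all regions, and 105 as higher in Th2, 18.6% beside 7.20%. Together that was 22.3% of domains beside 12.5% of all regions. Domains held a median of 1020 Ezh2 positions beside 256 over all regions, and the part of this in the shares was not tested. Width was called on both Ezh2 libraries summed, of which Th2 is the deeper. With Th2 alone 300 domains reached 10 kb in 1 piece, and with Th1 alone 206. The shares of domains passing, here and below, are thus not independent of the selection and are a description. The split depended on the scaling, with 2 and 369 for library totals and 36 and 73 for the median of the domains.

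Wider classes of domains had lower median ratios, with a wide overlap. The median ratio was 1.03 in regions of 3 to 5 kb, 0.983 in domains of 10 to 14 kb, 0.963 at 15 to 19 kb, 0.962 at 20 to 29 kb, 0.938 at 30 to 47 kb and 0.931 at 50 kb or more. Over the domains, Spearman's rho of the ratio was -0.139 with width and -0.311 with the pooled fold, as a description. The surrounding bins moved too: uncalled bins within 500 kb had a median ratio, relative to all regions, of 1.00 around domains of 10 to 14 kb and 0.951 around those of 50 kb or more. Divided by it, the median ratios of these classes were 0.976 and 0.954. Over input and library totals, where the median region was itself lower in Th1, the fold was the higher one in Th2 in 491 domains (86.9%) beside 72.6% of all regions of 3 kb or more, and in 47 of the 47 domains of 30 kb or more. Relative to the median region, the ratio was below 1 in 362 domains (64.1%) and in 41 of those 47. On the log2 scale the ratios of the domains had an SD of 0.22, where counting error alone gives 0.095, and 0.20 was left beyond it. Spearman's rho between the Th1 and Th2 folds was 0.832 over the domains, a description, since all share the same libraries. Of the 11 domains of 50 kb or more, 7 passed the exact test, each lower in Th1, at ratios of 0.857 to 0.936. After division by the surroundings 5 passed, 1 of them higher in Th1, at En2.

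**Figure D4:**
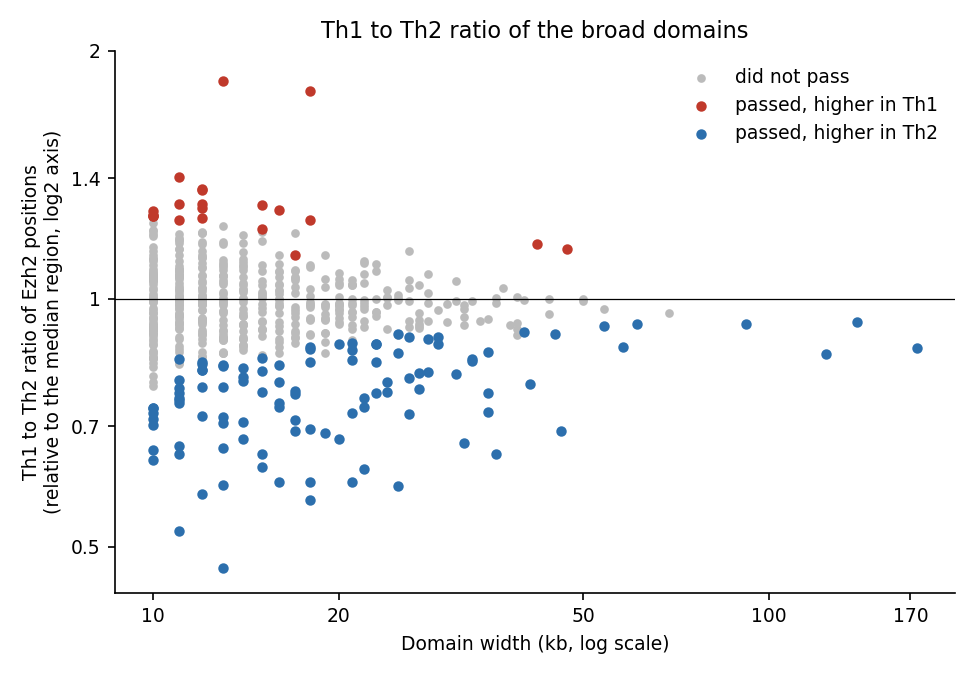
Th1 to Th2 ratio of Ezh2 positions relative to the median region (log2 axis) against domain width (kb, log scale), with 1 point per domain, coloured where the exact test passed without a fold limit. The SD of the log2 ratio is 0.234 at 10 to 14 kb and 0.239 at 15 to 19 kb. It is 0.185 at 20 to 29 kb, 0.197 at 30 to 47 kb and 0.0751 at 50 kb or more. The median ratio is below 1 in each of these classes, and the 11 domains of 50 kb or more lie between 0.857 and 0.998.

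Differences at the Hox domains were small. The HoxD domain had a Th1 to Th2 ratio of 0.857 (0.830 to 0.885, exact test, adjusted p = 5.94e-19) and the HoxC domain one of 0.870 (0.847 to 0.893, exact test, adjusted p = 1.49e-22). HoxB stood at 0.936 (0.905 to 0.969, exact test, adjusted p = 0.00294). Uncalled bins around them were low as well, at 0.882 for HoxD, 0.914 for HoxC and 0.951 for HoxB. After division by these, HoxD stood at 0.967 (exact test, adjusted p = 0.193), HoxC at 0.948 (exact test, adjusted p = 0.00188) and HoxB at 0.980 (exact test, adjusted p = 0.530), so the calls of HoxD and HoxB were lost and the order changed. At Gata4 the ratio was 0.992 (0.938 to 1.05) and at En2 0.998 (0.939 to 1.06), and neither passed. After division by the surroundings En2 stood at 1.10 (exact test, adjusted p = 0.0319).

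Taking the inputs into account, a conditional exact test of the folds, adjusted over the same 2902 regions, passed in 8 domains. Higher in Th1 was 1 domain (0.177%, beside 0.207% of all regions) and higher in Th2 were 7 (1.24%, beside 0.310%). The 7 lay on 5 chromosomes and, by general knowledge, 6 of them are at HoxC, Eomes, Tbx3, Foxa1, Lhx6 and Wnt7b. Each of the 8 also passed the test of Ezh2 positions alone, in the same direction. With the summed input of both cell types used for both, 21 domains passed (3.72%, beside 1.07% of all regions).

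The domain higher in Th1 was chr2:9804001-9822000 (18 kb), in the neighbourhood of Gata3. It held 605 Ezh2 positions in Th1 and 549 in Th2, although the Th2 library was the deeper one, with 154 and 140 input positions and 101 in the Th1 control. The fold over input was thus 5.65 for Th1 (4.74 to 6.80) and 3.36 for Th2 (2.80 to 4.09), and the intervals do not overlap. The ratio of positions was 1.79 (1.59 to 2.01, exact test, adjusted p = 5.62e-20) and that of the folds 2.03 (1.56 to 2.65, exact test, adjusted p = 1.23e-04). Called on Th1 alone it was nearly whole, with a piece of 17 kb, whereas Th2 alone gave no piece longer than 6 kb. On 1 cell type alone the domain thus reached 10 kb only in Th1, where it is high. Its difference is therefore not independent of its selection, and the tests of it are a description. The Th1 and Th2 bins had a rho of 0.214, below the median of 0.813 over the domains.

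At chr9:118377001-118398000 (21 kb), the neighbourhood of Eomes, the order was opposite. There were 332 Ezh2 positions in Th1 and 900 in Th2, with 170 and 128 input positions. The fold over input was 2.81 for Th1 (2.33 to 3.41) and 6.02 for Th2 (5.02 to 7.33). The Th2 to Th1 ratio was 1.67 for positions (1.47 to 1.90, exact test, adjusted p = 2.58e-14) and 1.77 for the folds (1.35 to 2.32, exact test, adjusted p = 0.00842). The longest piece was 3 kb with Th1 alone and 14 kb with Th2 alone, and the Th1 control was 1.01-fold over input. On 1 cell type alone the domain thus reached 10 kb only in Th2, where it is high. Its difference is therefore not independent of its selection, and the tests of it are a description.

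The only domain past the 2-fold limit was chr12:80531001-80544000 (13 kb), to which no gene is given here. It had 125 Ezh2 positions in Th1 and 432 in Th2, over 108 and 91 input positions, so that the fold over input was 1.67 for Th1 (1.28 to 2.18) and 4.06 for Th2 (3.25 to 5.17). No bin was called there with Th1 alone, and the longest piece with Th2 alone was 5 kb. The domain entered the set through the Th2 library, where it is high, so its difference is a description and its passing of both tests supports nothing. The Th2 to Th1 ratio was 2.13 for positions (1.74 to 2.62) and 2.01 for the folds (1.41 to 2.89). After division by the surrounding uncalled bins the ratio for positions was 1.98, short of 2-fold. The Th1 control was at 1.25-fold.

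The other domains past the test of folds were strong in both cell types and stronger in Th2. At chr5:120106001-120141000 (35 kb), the place of Tbx3, a developmental T-box factor, 758 Ezh2 positions were counted in Th1 and 1685 in Th2. The fold was 4.42 in Th1 (3.83 to 5.13) and 8.60 in Th2 (7.35 to 10.2), 1.61 times higher in Th2 after the median was removed (exact test, adjusted p = 0.00776). At chr12:58633001-58655000 (22 kb), the place of Foxa1, a pioneer factor of gut and lung, the counts were 582 and 1278 and the folds 5.33 (4.47 to 6.41) and 10.9 (8.96 to 13.6), a 1.69-fold difference (exact test, adjusted p = 0.0381). At chr2:35942001-35969000 (27 kb), the place of the homeobox gene Lhx6, they were 660 and 1318, and the fold of Th1 was 0.667 times that of Th2 (exact test, adjusted p = 0.0443).

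At chr15:85403001-85415000 (12 kb), the place of the Wnt ligand gene Wnt7b, 466 and 922 positions gave a difference of 1.92-fold over input (1.35 to 2.79, exact test, adjusted p = 0.0416) but of 1.22-fold in Ezh2 positions. The input of Th1 had 105 positions and that of Th2 had 53. At the HoxC domain the difference of the folds was 1.24-fold (1.14 to 1.34, exact test, adjusted p = 3.32e-04), the smallest of the 8.

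Other large ratios of positions did not pass once the inputs entered. At chr5:37254001-37267000 (13 kb) Th1 had 409 positions and Th2 had 361, which gave 1.84 (1.59 to 2.12, exact binomial test, adjusted p = 1.23e-14). The inputs held 102 and 64 there, and the difference of the folds was 1.45-fold (exact test, adjusted p = 0.399). At chr2:115677001-115688000 (11 kb), the place of the homeobox gene Meis2, 150 and 467 positions gave a ratio of 0.522, with an adjusted p of 0.147 for the folds by the exact test. At chr1:122488001-122513000 (25 kb), the place of the midbrain gene En1, 488 and 1337 gave 0.592, with an adjusted p of 0.180 for the folds by the exact test.

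Summed over the domains, the Th1 to Th2 ratio was 0.997 and 0.993 in the outermost of 10 equal parts and between 0.920 and 0.944 in the parts between. For single domains, Fisher's exact test of the left against the right part, adjusted over the 2902 regions, passed in 5 domains (0.885%, beside 0.414% of all regions). With all deposited reads in place of positions it passed in 105 (18.6%, beside 15.2% of all regions). In the Gata3 neighbourhood the left part, toward lower coordinates, held 352 Th1 and 245 Th2 positions, and stood at 2.33, and the right part held 253 and 304 and stood at 1.35 (Fisher's exact test, adjusted p = 0.00721). The surplus of Th1 was thus larger on the left, and both parts were above 1. At chr11:76477001-76489000 the ratio fell from 1.75 on the left to 0.958 on the right (exact test, adjusted p = 0.0197), and at chr4:117147001-117173000 from 1.17 to 0.828 (exact test, adjusted p = 0.0266). It rose at chr5:42134001-42160000 from 0.904 to 1.35 (exact test, adjusted p = 0.0266) and at chr5:136360001-136371000 from 0.879 to 1.71 (exact test, adjusted p = 0.0355). Between the inner part and both outer parts, the inner ratio was the lower in 339 of 565 domains. Inner over outer had a median of 0.955 beside 0.974 over all regions. The exact test passed in 3 domains (0.531%, beside 0.207% of all regions), with the inner ratio lower in 2 and higher in 1.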

How the data were processed

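ChIP-seq files of 6 libraries were used. Each line of a deposited file holds 1 interval of 119 bp without a strand and a count of the reads that share it, not normalized by the authors. The submitters' processing notes name CASAVA and mm9; alignment settings and filters are not given in the sources used here. Per the labels' protocols, fragments of 170 to 250 bp were amplified by 18 PCR cycles and sequenced for 36 cycles.

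Each distinct position was counted once, at its midpoint, in 1 kb bins of chromosomes 1 to 19 and X. Bins with under 10 positions in all were not tested. To each count 0.5 was added in the folds that call bins and in the folds and ratios of single regions. Their exact intervals were taken without it. The Th2 control file ends inside chromosome 17, so only chromosomes 3, 4, 5, 6, 7, 9, 12 and X of it were used. Tests were exact (binomial, conditional, Fisher), with Benjamini-Hochberg adjustment over all bins or regions tested, in Python 3.11.15 with scipy 1.17.1, and were tested on simulated data.

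Domains named were the 10 widest (with ties, and without 1 that is not reported here), the 5 highest in pooled fold, those past a test of Th1 against Th2 at 2-fold or of left against right, the 5 nearest pairs, and 5 regions on each side of the width limit. The 10 nearest pairs tie at 2 kb, and 5 were named. The domains past the test of folds over input, and 3 more with large ratios, were added after their values were seen. The members and lists were chosen with earlier results of these data known. No annotation or genome of mm9 was used here, so gene starts and domain sequences were not analysed, and coordinates were not converted.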

Additional observations from a re-analysis of the deposited data

Results flagged for a closer look

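In 8 domains the enrichment of Ezh2 over input differed between the Th1 and Th2 libraries by the conditional exact test of the folds, adjusted over 2902 regions. Set against the median region, the Th1 fold over the Th2 fold was 2.03 at chr2:9804001-9822000, in the Gata3 neighbourhood. It was 0.565 at chr9:118377001-118398000, near Eomes, 0.497 at chr12:80531001-80544000, and 0.521 at chr15:85403001-85415000, near Wnt7b. The domain on chromosome 12 from 80531001 entered the set through the Th2 library, with no bin called on Th1 alone, so its difference is not independent of its selection. The same limit holds near Gata3 and Eomes. On 1 cell type alone those domains reached 10 kb only where they are high, in Th1 and in Th2 respectively. For the rest, the pieces called on 1 cell type alone are not given here. The ratio was 0.590 at chr12:58633001-58655000, near Foxa1, 0.622 at chr5:120106001-120141000, near Tbx3, 0.667 at chr2:35942001-35969000, near Lhx6, and 0.809 at chr15:102734001-102908000, in the HoxC cluster. There was 1 library per cell type, so the spread between cultures was not measured.

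Sequences outside chromosomes 1 to 19 and X, which no comparison used, also held Ezh2 signal. Of 2603 bins tested there, 13 (0.499%, 95% exact interval 0.266 to 0.853) were called, the widest region was 9 kb and none was a domain. The Th1 control gave 0 called of 1296.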

How the results depend on the processing

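The number of domains, 565 as reported, depended on the calling. It was 1467 with 2 kb bins, 1297 with all deposited reads, 1594 with background scaling, 238 under strict thresholds (4-fold, adjusted p below 0.001), 213 and 316 on Th1 and Th2 alone, and 848, 262 and 146 at a minimum width of 8, 15 and 20 kb. At equal depth, an alternative added after seeing the data, Th1 and Th2 alone gave 193 and 289. The median gap, 1214 kb, became 3369 kb under the strict thresholds, 374 kb with 2 kb bins, 441 kb with all reads and 318.5 kb with background scaling. The number of domains stayed within 1.5 times with no gap (403), a gap of 2 bins (684), equal depth (487), no minimum of positions (550) and, on 8 chromosomes, the control as background (250 beside 233). Of the 565, 99.8% were overlapped by the domains of 2 kb bins, 40.4% by those of the strict thresholds.

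The count of 2-fold ratio calls, 1, became 4 with library totals, 8 with 2 kb bins, and 0 at 15 and 20 kb, since the domain called is 13 kb wide, and 0 after division by the surrounding uncalled bins, which left it at 1.98-fold. Domains passing as higher in Th1, 21 as reported, became 2 with library totals, 36 with the domains' median, 71 with all reads, 38 at 8 kb, 8 at 15 kb, 2 at 20 kb, 81 with 2 kb bins and 13 after division by the surroundings. Those higher in Th2, 105 as reported, became 369 with library totals, 183 with all reads, 68 at 15 kb, 47 at 20 kb and 226 with 2 kb bins. The test over input passed in 21 domains with the summed input in place of 8. The test along domains passed in 3 for inner against outer parts and in 105 with all reads, in place of 5. A smaller minimum width leaves more domains by construction; otherwise the cause was not tested.

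Of 100 values of named domains under 5 alternatives, 92 kept their direction and side of the threshold, 5 newly passed and 2, both of chr11:76477001-76489000, no longer passed. The ratio of chr5:42134001-42160000, which had not passed, turned from 1.14 to 0.976 with library totals. No paired analysis was possible because no group held more than 1 library. Gene starts were not run.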
